A study of Mus musculus with 6 samples.

Results

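The genes described are 36 members of the folding and quality-control machinery of the endoplasmic reticulum (ER), chosen by name for their function: ER chaperones, disulfide enzymes, sensors of the unfolded protein response, ER-associated degradation and protein entry into the ER. All 36 were found among the 54532 genes of the deposited table, and 35 had a mean of at least 1 FPKM (fragments per kilobase of gene, scaled to library size) over the 6 libraries and were tested. The exception was Derl3, which had 36 reads over the 3 KD libraries and 25 over the 3 NC libraries (0.298, 0.424 and 0.326 FPKM in KD, against 0.344, 0.126 and 0.317 FPKM in NC). The libraries come from mouse cells labelled as primary lung fibroblasts, 3 titled calumenin KD and 3 titled NC. The descriptions of the same libraries use KO and WT in place of KD and NC, the labels do not spell out NC, and they give neither the knockdown reagent, the time after it, nor the animals' age or strain. The study asked how loss of calumenin, a resident of the ER lumen encoded by Calu, bears on senescence and fibrosis signalling in these cells. Calu had 14.6, 12.6 and 13.1 FPKM in KD1, KD2 and KD3, against 220, 227 and 225 FPKM in NC1, NC2 and NC3, which leaves 6.0% in the KD cells (limma adjusted p = 1.28e-06).

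Proteins that enter the secretory pathway are folded in the ER lumen by the Hsp70 chaperone BiP with its J-domain partners, by the Hsp90 member GRP94 and by the lectins calnexin and calreticulin, while protein disulfide isomerases form and rearrange disulfide bonds and are re-oxidised by ERO1. When unfolded proteins accumulate, the sensors IRE1, ATF6 and PERK start the unfolded protein response, in which the transcription factors XBP1 and ATF6 raise chaperone and degradation genes. Proteins that fail to fold have their glycans trimmed by the EDEM proteins, are recognised by lectins such as OS9, and leave through the SEL1L and HRD1 ubiquitin ligase complex for destruction by the proteasome. Fibroblasts depend on this machinery because they secrete large amounts of collagen and other matrix proteins.

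Depth was 15907164 to 18312888 reads per library. With the library sizes behind the FPKM, 3 reads corresponded to between 0.162 and 0.189 CPM, a limit that covers counting error only. Those sizes were 1.010 to 1.023 times the reads in the KD libraries and 0.987 to 0.996 times the reads in the NC libraries. KD1 stood apart from the other KD libraries, with 2.56% of its reads from mitochondrial genes against 1.60% to 1.97% in the other 5 libraries, and counts and calls that change when it is left out are given both ways. Of 11 fibroblast markers 8 reached 1 FPKM, among them Col1a1, Vim and Pdgfra, whereas Lum was at 0 in every library, Dcn was at 0 in the KD libraries with at most 0.0216 FPKM in NC, and Thy1 had at most 0.169 FPKM in any library. The summed level of the fibroblast markers was 1629 to 1663 FPKM in KD and 1370 to 1424 FPKM in NC, with Col1a1 at 190% and Fn1 at 171% of NC but Col3a1 at 44.3% (limma adjusted p = 0.000111) and Pdgfrb at 82.0% (0.0292). The part of these markers in the results below was not tested. Epithelial markers summed to at most 0.804 FPKM in KD and 0.297 FPKM in NC, and endothelial markers to at most 0.153 and 0.156 FPKM, with 0 of 6 and 0 of 4 reaching 1 FPKM. Of 6 leukocyte markers only Cd68 reached 1 FPKM (1.69 to 3.74 FPKM in KD and 3.56 to 3.86 FPKM in NC), with Adgre1 at 0 in every library, and of 5 smooth muscle and pericyte markers only Des did.

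Within the ER folding genes some rose and others fell. Of 6 protein disulfide isomerases 4 rose in KD cells, and with calreticulin they reached 1.32 to 1.56 times the NC level, whereas Ero1l, the oxidase that recharges them, fell to 40.6% of its NC level and Edem1 to 64.8%. Textbook targets of the unfolded protein response did not move as one: Calr, Pdia6, Dnajc3 and Herpud1 rose and Edem1 fell. Others did not pass with all 6 libraries. Among these, BiP (Hspa5), Dnajb11, Manf, Pdia4, Xbp1 and Syvn1 had every KD library above every NC library. In GRP94 (Hsp90b1), Sdf2l1, Creld2, Dnajb9 and Hyou1 the groups overlapped, and without KD1 Hyou1 was higher and Dnajb9 lower. In all, 8 of the 35 tested members were higher in KD and 3 were lower at an adjusted p under 0.05 (limma on log2(FPKM + 1), Benjamini-Hochberg over 12299 genes), which is 22.9% and 8.57% of the members, beside 10.9% and 13.6% of all genes tested. The median difference over the tested members was 0.12 on the log2(FPKM + 1) scale, beside 0.01 over all genes tested. Equal totals of FPKM in place of the deposited scaling gave 10 members higher and 2 lower, beside 12.6% and 11.9% of all genes.

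The counts depended on single libraries. Without KD1, 15 members were higher and 5 lower (42.9% and 14.3% of the members), beside 20.9% and 21.5% of all genes. Without KD2, NC1 or NC3, 3 members were higher and 2 lower, and without NC2 4 and 2, where 590 to 651 of all genes were higher and 923 to 983 lower. Without KD3 8 members were higher and 2 lower, beside 1006 and 1454 genes. Of the 11 members called, Ero1l, Edem1, P4hb, Txndc5 and Pdia5 passed in all 21 alternative settings. In 18 members every KD library lay above every NC library and in 5 every KD library lay below, or 51.4% and 14.3% of the members, beside 21.3% and 22.9% of all genes tested. Whether the 3 libraries of a group stem from different cultures or animals is not stated in the labels, and each p-value therefore reflects only library-to-library spread, possibly technical. These are bulk samples, in which fewer cells of a kind and less RNA per cell cannot be told apart.

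**Figure D1:**
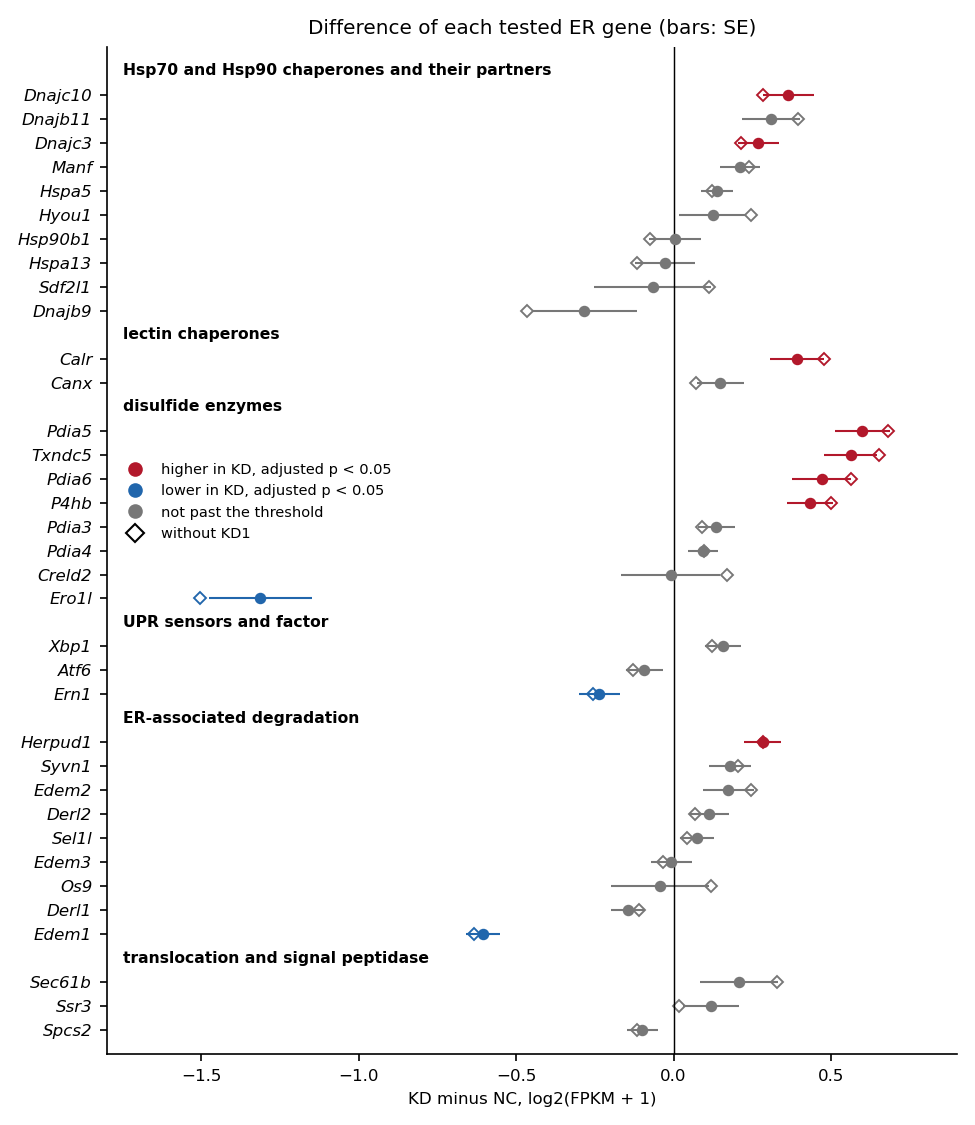
Difference between KD and NC on the log2(FPKM + 1) scale for the 35 tested ER genes, grouped by role, with the limma SE as bars. Filled circles use all 6 libraries and open diamonds leave out KD1; red and blue mark genes past an adjusted p of 0.05, and Ero1l lies far below all others at -1.31.

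FPKM is per gene length but does not remove effects of GC content, so the order of levels between genes is approximate. Hsp90b1, Hspa5, P4hb and Calr were the most abundant in NC cells, at 410, 389, 348 and 341 FPKM, and in KD cells P4hb came first at 470 FPKM, followed by Calr at 449, Hspa5 at 428 and Hsp90b1 at 414. The neighbours in that order did not separate beyond their spread in KD: the KD libraries ranged from 427 to 499 FPKM for P4hb, 396 to 489 for Calr, 418 to 437 for Hspa5 and 375 to 461 for Hsp90b1. Pdia3, Canx, Pdia4, Pdia6 and Ero1l followed in NC cells at 276, 252, 202, 134 and 128 FPKM. Ero1l had rank 9 of the 36 by mean level in NC and rank 14 in KD, given here in FPKM as 52.0 in KD and 128 in NC. Apart from Derl3, the lowest members were Hspa13, with 7.46 FPKM in KD and 7.59 FPKM in NC, and the sensor gene Ern1, with 6.73 and 8.11 FPKM. Together the 36 genes took 1.38%, 1.39% and 1.39% of reads in KD1, KD2 and KD3 and 1.23%, 1.23% and 1.23% in NC1, NC2 and NC3, so the groups did not overlap in this share.

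**Figure D2:**
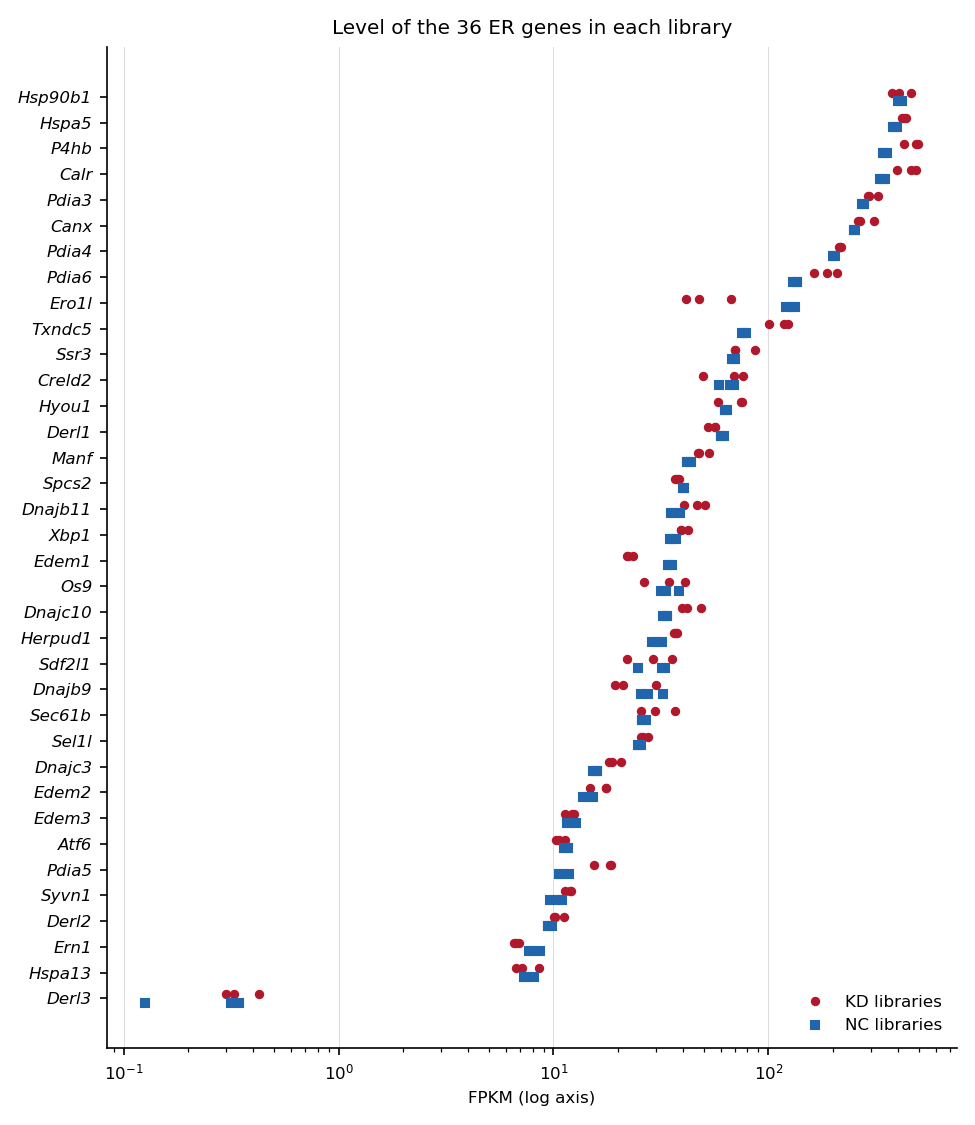
FPKM of the 36 ER genes in each library on a log axis, ordered by the mean of the NC libraries. Red circles are KD libraries and blue squares NC libraries; Ero1l and Edem1 sit left of their NC values, P4hb, Calr, Pdia6, Txndc5 and Pdia5 right of them, and Derl3 is alone under 1 FPKM.

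Promoters of these genes are shown because the ER stress response element, bound by ATF6 together with NF-Y, is the textbook control site of the chaperone group. RefSeq promoter windows (GRCm38.p6) of 300 bases, reaching 250 bases upstream of the start, were matched for 31 of the 36 members, all but Atf6, Derl1, Hspa13, Hyou1 and Manf. The element ERSE, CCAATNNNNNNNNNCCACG, was present on either strand in the windows of 9 of these 31 genes (29.0%), against 0.119% of all 32851 windows and 0.121% of the windows of tested genes. The shorter ERSE-II, ATTGGNCCACG, was present in 2 of the 31 (6.45%), against 0.0365% of all windows and 0.0927% of the windows of tested genes. The XBP1 site TGACGTGG was present in 1 of the 31 (3.23%), Txndc5, against 0.676% of all windows and 0.862% of the windows of tested genes. No ERSE match overlapped an ERSE-II match. Shares of members count genes (31, with 34 windows), whereas the other shares count windows. The members were chosen by function, and ERSE is the textbook site of the chaperone group. Its excess among them was therefore likely from that choice alone and is no result of the 6 libraries. Of 81 other ER genes with a window, from the lists described below, 1 held ERSE, 1 held ERSE-II and 4 held the XBP1 site. The matches are given with 6 flanking bases on each side on the strand on which the element reads, with its fixed letters in capitals:
Hspa5 (chr2:34772019-34772049, plus strand, ERSE): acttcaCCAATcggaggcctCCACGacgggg
Hsp90b1 (chr10:86705632-86705662, minus strand, ERSE): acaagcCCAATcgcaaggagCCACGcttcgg
Hsp90b1 (chr10:86705527-86705557, plus strand, ERSE): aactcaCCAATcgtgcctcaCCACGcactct
Dnajb11 (chr16:22857846-22857868, plus strand, ERSE-II): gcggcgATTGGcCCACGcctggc
Dnajc3 (chr14:118937821-118937851, plus strand, ERSE): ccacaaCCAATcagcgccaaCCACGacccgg
Calr (chr8:84847069-84847099, plus strand, ERSE): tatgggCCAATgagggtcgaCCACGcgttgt
Canx (chr11:50325794-50325824, minus strand, ERSE): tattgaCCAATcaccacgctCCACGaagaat
Pdia6 (chr12:17266485-17266515, plus strand, ERSE): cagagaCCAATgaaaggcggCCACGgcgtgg
Creld2 (chr15:88819514-88819544, minus strand, ERSE): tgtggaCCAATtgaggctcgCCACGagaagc
Herpud1 (chr8:94386371-94386393, plus strand, ERSE-II): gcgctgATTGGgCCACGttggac
Syvn1 (chr19:6046526-6046556, plus strand, ERSE): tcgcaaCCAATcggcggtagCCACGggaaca
Derl3 (chr10:75893236-75893266, minus strand, ERSE): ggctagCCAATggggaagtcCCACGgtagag

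**Figure D3:**
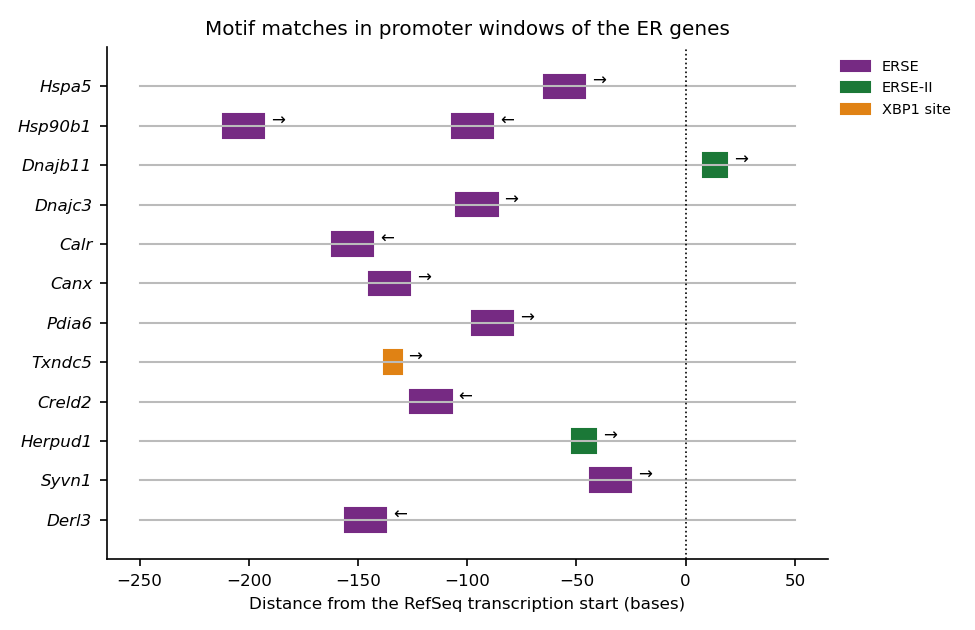
Position of the ERSE, ERSE-II and XBP1 site matches in promoter windows of 12 ER genes, in bases from the RefSeq transcription start (dotted line), with arrows for orientation relative to the gene. The match furthest upstream is in Hsp90b1 at bases -212 to -194, and that of Dnajb11 lies after the start, at bases 8 to 18.

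Of the 11 members with ERSE or ERSE-II, 10 were tested, 4 were higher in KD (Calr, Pdia6, Dnajc3 and Herpud1), 0 were lower, and their median log2 difference was 0.22, with a range of -0.01 to 0.47. Of these 10, 7 were higher without KD1, 4 without KD3, 1 without NC2 and 0 without KD2, NC1 or NC3, and 0 were lower in each case. Of all 12299 genes tested, 10.9% were higher and 13.6% lower with all libraries, and 20.9% and 21.5% without KD1. Without KD3 1006 of all genes were higher and 1454 lower. Without KD2, NC1, NC2 or NC3 590 to 651 were higher and 923 to 983 lower. Of the 20 members with a window and neither element, 4 were higher (Pdia5, Txndc5, P4hb and Dnajc10), 3 were lower and the median was 0.10, with a range of -1.31 to 0.60. The difference between these sets was not tested, and a match is a description of letters, not of a bound site. The upstream sequences of Hspa5 and Calr, both with ERSE, and of Ero1l (Ero1a in RefSeq) and Edem1, the members that fell furthest, are printed for comparison, with each CCAAT and CCACG on either strand in capitals. Hspa5 has 4 CCAAT and 1 CCACG in these 250 bases, Calr has 2 and 1, Ero1l has 0 and 1, and Edem1 has 1 and 2:
Hspa5 (chr2:34771840-34772089, plus strand): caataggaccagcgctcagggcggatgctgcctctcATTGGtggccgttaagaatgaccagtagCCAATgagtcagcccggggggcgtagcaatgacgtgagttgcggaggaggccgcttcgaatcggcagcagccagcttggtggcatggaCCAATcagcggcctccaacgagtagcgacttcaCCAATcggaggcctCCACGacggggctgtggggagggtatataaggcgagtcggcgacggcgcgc
Calr (chr8:84846932-84847181, minus strand): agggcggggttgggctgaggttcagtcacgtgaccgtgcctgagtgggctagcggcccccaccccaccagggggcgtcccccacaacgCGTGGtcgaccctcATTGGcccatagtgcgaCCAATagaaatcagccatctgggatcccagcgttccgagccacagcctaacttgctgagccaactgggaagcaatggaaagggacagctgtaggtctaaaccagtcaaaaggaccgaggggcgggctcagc
Ero1l (chr14:45318573-45318822, minus strand): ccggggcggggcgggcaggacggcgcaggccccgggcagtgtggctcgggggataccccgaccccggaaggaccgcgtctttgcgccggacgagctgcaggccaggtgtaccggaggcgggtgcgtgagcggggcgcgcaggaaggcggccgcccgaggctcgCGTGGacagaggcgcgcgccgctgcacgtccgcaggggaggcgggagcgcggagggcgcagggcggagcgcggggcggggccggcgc
Edem1 (chr6:108828391-108828640, plus strand): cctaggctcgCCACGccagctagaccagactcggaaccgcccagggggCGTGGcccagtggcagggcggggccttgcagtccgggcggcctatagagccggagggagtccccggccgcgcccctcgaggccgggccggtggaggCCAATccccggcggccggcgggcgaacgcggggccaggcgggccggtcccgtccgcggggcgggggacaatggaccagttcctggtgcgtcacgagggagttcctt

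Among the disulfide enzymes, which make and rearrange disulfide bonds, 4 of 8 rose and 1 fell, with all libraries and without KD1. Of all genes tested, 10.9% rose and 13.6% fell with all libraries, and 20.9% and 21.5% without KD1. P4hb encodes protein disulfide isomerase itself, which is also the beta subunit of collagen prolyl 4-hydroxylase, and spans chr11:120560298-120573253 on the minus strand (mm10, ENSMUSG00000025130). Values here and below count reads over a whole gene as the file defines it. It had 427, 485 and 499 FPKM in KD1, KD2 and KD3, against 347, 340 and 355 FPKM in NC1, NC2 and NC3. All KD libraries were above all NC libraries, and KD1 was the lowest of the KD libraries. The means were 470 ± 38.5 FPKM in KD and 348 ± 7.60 FPKM in NC (SD, n = 3 each), a log2 difference of 0.43 (SE 0.07, limma adjusted p = 0.00749). Txndc5, an isomerase with thioredoxin domains, at chr13:38500079-38528824 (minus strand, ENSMUSG00000038991), had 100.3, 119 and 124 FPKM in the KD libraries, against 76.0, 75.4 and 78.7 FPKM in the NC libraries. The groups did not overlap, KD1 was again the lowest KD library, and the log2 difference was 0.56 (SE 0.08, limma adjusted p = 0.0051).

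Pdia5, a less abundant isomerase at chr16:35397312-35490873 (minus strand, ENSMUSG00000022844), had the largest rise of the 35 members, with 15.4, 18.4 and 18.5 FPKM in KD1, KD2 and KD3, against 11.9, 10.9 and 10.7 FPKM in NC1, NC2 and NC3. All KD values lay above all NC values. From 2500 reads in KD and 1475 in NC, limma gave a log2 difference of 0.60 (SE 0.09, adjusted p = 0.00436). Pdia6, a further isomerase (chr12:17266545-17284770, plus strand, ENSMUSG00000020571) whose window holds one of the ERSE matches printed above, had 163, 188 and 209 FPKM in the KD libraries, against 131, 135 and 135 FPKM in the NC libraries. The KD libraries were spread more widely than the NC libraries, with means of 187 ± 23.1 FPKM in KD and 134 ± 2.62 FPKM in NC (SD, n = 3 each) and a log2 difference of 0.47 (SE 0.09, limma adjusted p = 0.0134). Its call was lost without KD2, NC1, NC2 or NC3 (limma adjusted p between 0.0506 and 0.0601) and had an adjusted p of 0.00105 without KD1.

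Pdia3 and Pdia4, the abundant isomerases that work with the lectins and with BiP, had smaller differences. Pdia3 had 323, 296 and 292 FPKM in KD, against 273, 279 and 275 FPKM in NC, and Pdia4 had 215, 219 and 214 FPKM in KD, against 201, 205 and 200 FPKM in NC. In both genes every KD library lay above every NC library, and neither passed (limma adjusted p = 0.141 and 0.195). Both passed with a GC and length trend removed, with log2 differences of 0.23 for Pdia3 and 0.17 for Pdia4 (adjusted p = 0.00779 and 0.0118). Pdia4 lies on chromosome 6, whose tested genes had a median difference of -0.22, and with chromosome medians removed its log2 difference was 0.32 (adjusted p = 0.00445) in place of 0.09. Creld2, an ER stress-inducible protein of the lumen, had 49.9, 69.1 and 76.5 FPKM in KD and 58.9, 66.5 and 68.9 FPKM in NC, with overlapping groups (limma adjusted p = 0.972).

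Ero1l encodes the oxidase ERO1 alpha, which passes electrons from the isomerases to oxygen, and had the largest difference of the 35 tested members. The gene (chr14:45283087-45318771, minus strand, ENSMUSG00000021831) had 66.7, 47.6 and 41.5 FPKM in KD1, KD2 and KD3, against 133, 129 and 121 FPKM in NC1, NC2 and NC3. Every KD library was below every NC library, and KD1 was the closest of them to NC. The means were 52.0 ± 13.2 FPKM in KD and 128 ± 6.14 FPKM in NC (SD, n = 3 each), a log2 difference of -1.31 (SE 0.16, limma adjusted p = 0.00255) and -1.50 without KD1 (adjusted p = 0.000107). The ratio of Ero1l to P4hb, both as FPKM, was 0.156, 0.0980 and 0.0832 in KD1, KD2 and KD3 and 0.384, 0.380 and 0.341 in NC1, NC2 and NC3, a description of opposite changes with no test. Over the 21 alternatives the adjusted p of Ero1l was at most 0.0173. Tested genes of its chromosome 14 had a median difference of -0.19. With chromosome medians removed the difference of Ero1l was -1.12 (limma adjusted p = 0.00419).

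**Figure D4:**
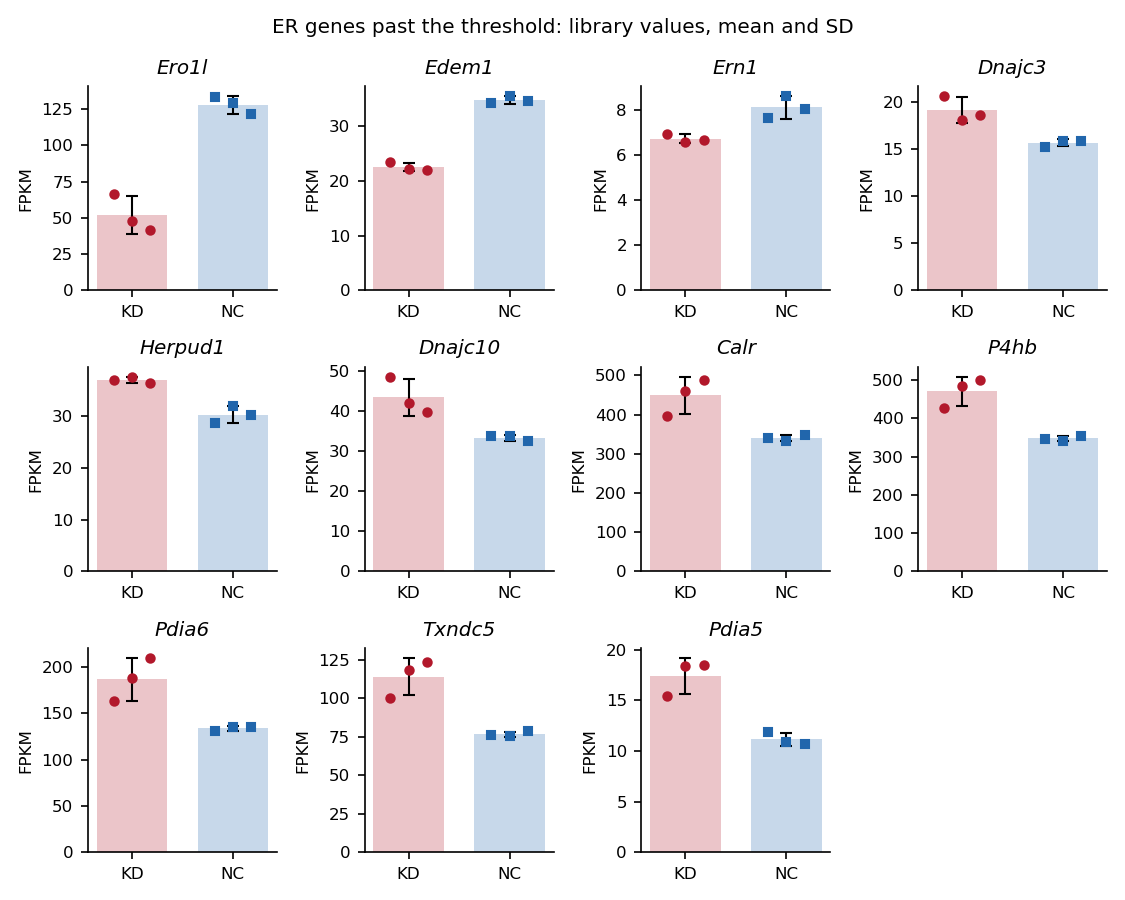
FPKM of the 11 ER genes past the threshold in each KD library (red, left) and each NC library (blue, right), with the mean as a bar from 0 and the SD as an error bar (n = 3 each). No KD point overlaps the NC points of the same gene, and KD1, the first KD point, is offset from KD2 and KD3 in Ero1l, Calr, P4hb, Pdia5 and Txndc5, among others.

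Of the lectin chaperones, Calr rose and Canx did not pass. Calreticulin, the soluble calcium-binding lectin of the lumen (chr8:84841850-84846934, minus strand, ENSMUSG00000003814), had 396, 461 and 489 FPKM in KD1, KD2 and KD3, against 340, 333 and 349 FPKM in NC1, NC2 and NC3. KD1 was the lowest KD library and still above all NC libraries. The log2 difference was 0.39 (SE 0.09, limma adjusted p = 0.0186) and 0.48 without KD1 (adjusted p = 0.000881). The call was lost without KD2, NC1, NC2 or NC3 (adjusted p between 0.0602 and 0.0807), with no filter (0.0834) and with each chromosome's median removed (0.0678), where the difference was 0.23. Genes of chromosome 8, where Calr and Herpud1 lie, had a median difference of 0.17. Canx, the membrane-bound partner calnexin, had 310, 262 and 266 FPKM in KD and 252, 250 and 252 FPKM in NC. Its groups did not overlap, KD1 was the highest library, and the limma adjusted p was 0.197, or 0.00501 with the GC and length trend removed.

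Of the 10 chaperones of the BiP and GRP94 systems 2 rose and 0 fell, and without KD1 6 were higher and 1 was lower. The shares of all genes were 10.9% higher and 13.6% lower, and without KD1 20.9% and 21.5%. Dnajc10, a J-domain reductase that acts with BiP in degradation (chr2:80315466-80354043, plus strand, ENSMUSG00000027006), had 48.5, 42.0 and 39.6 FPKM in KD1, KD2 and KD3, against 33.8, 33.8 and 32.5 FPKM in NC1, NC2 and NC3. Every KD library was above every NC library, and the log2 difference was 0.36 (SE 0.08, limma adjusted p = 0.02). Dnajc3, the co-chaperone p58IPK (chr14:118937976-118981697, plus strand, ENSMUSG00000022136), had 20.7, 18.1 and 18.6 FPKM in KD, against 15.3, 15.9 and 15.9 FPKM in NC, a log2 difference of 0.27 (SE 0.07, limma adjusted p = 0.0277). In both genes KD1 was the highest KD library. Both calls were lost without KD2, NC1, NC2 or NC3, with limma adjusted p between 0.0604 and 0.0776 for Dnajc10 and between 0.055 and 0.109 for Dnajc3. With chromosome medians removed the log2 difference was 0.33 for Dnajc10 and 0.46 for Dnajc3 (limma adjusted p = 0.0347 and 0.00354).

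The call of BiP depended on the processing. Hspa5 had 437, 429 and 418 FPKM in KD1, KD2 and KD3, against 389, 395 and 382 FPKM in NC1, NC2 and NC3, with no overlap between the groups, a log2 difference of 0.14 (SE 0.05) and a limma adjusted p of 0.0907. It passed without KD1 (0.0414), with array weights (0.00607) and with the GC and length trend removed (0.00521), where the log2 difference was 0.23, and in the other 18 of the 21 alternatives it did not. Hsp90b1 had 461, 404 and 375 FPKM in KD and 412, 418 and 401 FPKM in NC, and the groups overlapped (limma adjusted p = 0.966). With chromosome medians removed its log2 difference was 0.21 in place of 0.01, and it did not pass (limma adjusted p = 0.127). Dnajb11, a BiP co-chaperone whose window holds ERSE-II, lay at the threshold. It had 40.4, 46.5 and 50.8 FPKM in KD, against 36.4, 35.1 and 38.7 FPKM in NC, a log2 difference of 0.31 (SE 0.09, limma adjusted p = 0.0505), and it passed in 10 of 21 alternatives, without KD1 among them (adjusted p = 0.00436). Manf, a secreted factor that binds BiP, had 47.2, 47.6 and 53.1 FPKM in KD, against 41.8, 41.7 and 43.8 FPKM in NC (limma adjusted p = 0.0554, or 0.0194 without KD1).

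The other 4 of this group had overlapping libraries. Hyou1, the nucleotide exchange factor of BiP, had 58.2, 74.8 and 75.8 FPKM in KD and 62.8, 62.8 and 64.4 FPKM in NC, so that KD1 lay below the NC libraries and KD2 and KD3 above them; the limma adjusted p was 0.427, or 0.00321 without KD1. Dnajb9, a J-domain protein that turns IRE1 down and a target of XBP1, had 29.9, 19.4 and 21.2 FPKM in KD and 32.3, 27.6 and 25.5 FPKM in NC (limma adjusted p = 0.261, or 0.0159 without KD1, where it was lower by a log2 difference of -0.46). Sdf2l1, which works with Dnajb11, had 21.9, 29.0 and 35.8 FPKM in KD and 33.0, 24.9 and 32.1 FPKM in NC, and Hspa13, an Hsp70-like protein, ranged from 6.66 to 8.56 FPKM in KD and from 7.27 to 8.10 FPKM in NC. Neither passed with or without KD1.

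Among the sensors, Ern1 fell and Atf6 and the transcription factor gene Xbp1 did not pass. Ern1, which encodes the sensor IRE1 alpha (chr11:106394650-106487852, minus strand, ENSMUSG00000020715), had 6.94, 6.57 and 6.68 FPKM in KD1, KD2 and KD3, against 7.66, 8.63 and 8.04 FPKM in NC1, NC2 and NC3, a log2 difference of -0.24 (SE 0.06, limma adjusted p = 0.0394). All KD libraries were below all NC libraries, but the call held in only 13 of 21 alternatives and was lost without KD2, KD3, NC1, NC2 or NC3 (adjusted p between 0.072 and 0.15). Xbp1, whose RNA is spliced by IRE1, had 42.1, 39.1 and 39.3 FPKM in KD, against 37.1, 35.6 and 34.98 FPKM in NC, without overlap (limma adjusted p = 0.0874). The table gives a level per gene, so spliced and unspliced Xbp1 RNA cannot be told apart. Atf6 had 11.3, 10.2 and 10.6 FPKM in KD and 11.6, 11.6 and 11.2 FPKM in NC (limma adjusted p = 0.285).

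Of the 9 tested genes of ER-associated degradation 1 rose and 1 fell, beside 10.9% and 13.6% of all genes. Without KD1 3 were higher and 1 was lower, beside 20.9% and 21.5% of all genes. Edem1, which trims mannose from misfolded glycoproteins, spans chr6:108828641-108859356 on the plus strand (ENSMUSG00000030104). It had 23.4, 22.2 and 21.9 FPKM in KD1, KD2 and KD3, against 34.2, 35.5 and 34.5 FPKM in NC1, NC2 and NC3. The libraries of each group lay close together and the groups were far apart, with means of 22.5 ± 0.792 FPKM in KD and 34.7 ± 0.671 FPKM in NC (SD, n = 3 each), a log2 difference of -0.60 (SE 0.05, limma adjusted p = 0.000572). Edem1 shares chromosome 6 with Calu, and tested genes of that chromosome had a median difference of -0.22. With each chromosome's median removed the difference of Edem1 was -0.38 (limma adjusted p = 0.00383, within a range of 9.52e-06 to 0.00764 over the alternatives). Its relatives did not pass. Edem2 had 14.9, 17.5 and 17.5 FPKM in KD and 14.8, 13.7 and 15.2 FPKM in NC (limma adjusted p = 0.165, or 0.0145 without KD1, where it was higher), and Edem3 ranged from 11.3 to 12.5 FPKM in KD and from 11.5 to 12.8 FPKM in NC (limma adjusted p = 0.945). The ratio of Edem1 to Edem2 in FPKM was 1.57, 1.27 and 1.25 in KD1, KD2 and KD3 and 2.31, 2.58 and 2.27 in NC1, NC2 and NC3.

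Herpud1, a membrane protein that organises the HRD1 complex (chr8:94386438-94395377, plus strand, ENSMUSG00000031770), rose. It had 37.0, 37.6 and 36.4 FPKM in KD1, KD2 and KD3, against 28.7, 32.0 and 30.2 FPKM in NC1, NC2 and NC3, a log2 difference of 0.28 (SE 0.06, limma adjusted p = 0.0153). KD1 lay between KD2 and KD3 for this gene and the groups did not overlap. The call was lost without KD2, NC1 or NC3 (adjusted p between 0.0667 and 0.0722), and with each chromosome's median removed the difference was 0.12 (adjusted p = 0.187). The ligase Syvn1 (HRD1) had 11.3, 12.0 and 12.1 FPKM in KD and 11.0, 10.3 and 9.62 FPKM in NC (limma adjusted p = 0.0933, or 0.0423 without KD1), and its adaptor Sel1l had 25.6 to 27.6 FPKM in KD and 24.6 to 25.4 FPKM in NC. The derlins, which help proteins back across the membrane, did not pass. Derl1 had 52.5 to 56.5 FPKM in KD and 60.0 to 62.5 FPKM in NC, and Derl2 had 10.1 to 11.2 FPKM in KD and 9.42 to 9.88 FPKM in NC. The lectin gene Os9 ranged from 26.5 to 40.8 FPKM in KD and from 31.8 to 38.2 FPKM in NC.

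None of the 3 genes for entry into the ER passed with all 6 libraries, and without KD1 1 was higher and 1 lower, beside 20.9% and 21.5% of all genes. Sec61b, a subunit of the translocation channel, had 25.6, 29.8 and 36.8 FPKM in KD and 27.0, 25.8 and 25.7 FPKM in NC (limma adjusted p = 0.264, or 0.0298 without KD1). Ssr3, of the translocon-associated protein complex, had 86.5, 70.0 and 70.1 FPKM in KD and 70.1, 69.4 and 68.0 FPKM in NC (limma adjusted p = 0.375). Spcs2, of the signal peptidase, had 38.4, 37.4 and 36.8 FPKM in KD, against 40.0, 40.4 and 40.4 FPKM in NC (limma adjusted p = 0.179, or 0.0384 without KD1). In Spcs2 the groups did not overlap, with KD below NC.

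The position of KD1 within its group moved with GC content across these genes. Of the 16 tested members whose longest transcript has at least 50% GC, KD1 lay below the mean of KD2 and KD3 in 13, and of the 19 with less it lay above that mean in 16. The offset of KD1 on the log2(FPKM + 1) scale was 0.57 for Ero1l (41.6% GC) and 0.54 for Dnajb9 (40.6%), and -0.53 for both Sdf2l1 (56.7%) and Creld2 (54.8%). Spearman's rho between GC content and this offset was -0.85 over the 35 members and -0.66 over 12282 tested genes, a description over genes of the same libraries. With a GC and length trend removed from every library, 18 members were higher and 3 lower, beside 2383 and 2211 genes of all tested, and 33 of the 35 members had the direction they have without it. The 10 members that passed there but not in the uncorrected fit were Hspa5, Dnajb11, Manf, Canx, Pdia3, Pdia4, Edem2, Sel1l, Derl2 and Ssr3, all higher in KD, with log2 differences of 0.13 to 0.35. The part of GC content in the members' differences was otherwise not tested.

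**Figure D5:**
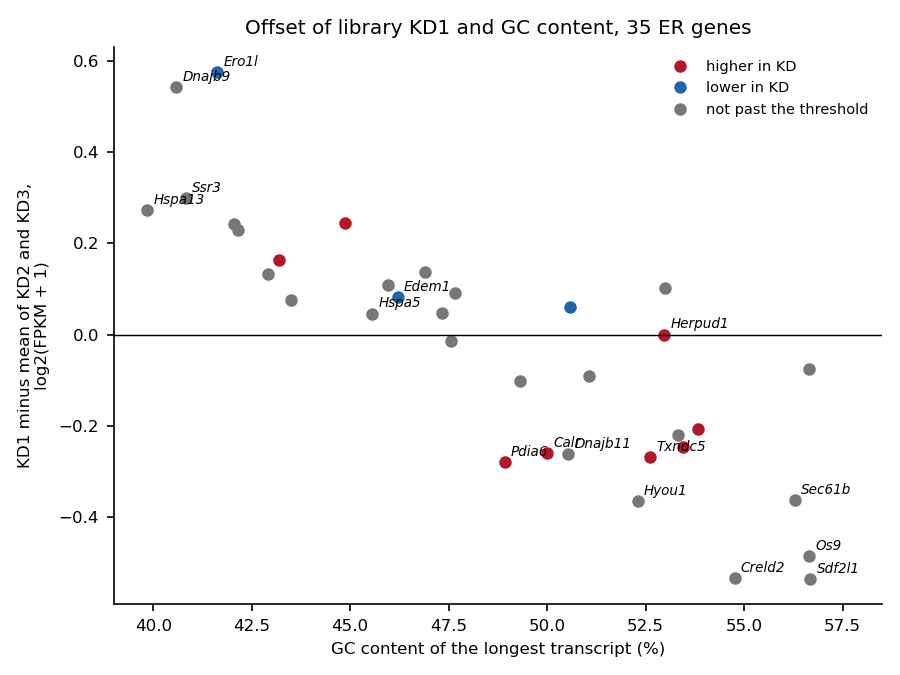
GC content of the longest transcript of each of the 35 tested ER genes (x axis, %) against the offset of library KD1 from the mean of KD2 and KD3 on the log2(FPKM + 1) scale (y axis). Red, blue and grey mark genes higher in KD, lower in KD and not past the threshold with all libraries; the offset runs from 0.57 for Ero1l to -0.53 for Sdf2l1.

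The rest of the ER folding pathway was read from 6 further lists with 106 genes, of which 97 were tested. Of these 97, 13 rose and 8 fell, beside 10.9% and 13.6% of all genes. Counts of each list without KD1 stand beside 20.9% of all genes higher and 21.5% lower in that fit. On the list of other sensors and their processing enzymes 4 of 8 rose and 1 fell, and without KD1 4 were higher and 2 lower. Atf6b, the ATF6 paralog, had 22.7, 25.6 and 27.6 FPKM in KD1, KD2 and KD3, against 18.3, 17.0 and 17.2 FPKM in NC1, NC2 and NC3 (log2 difference 0.50, SE 0.08, limma adjusted p = 0.00634). Mbtps1, the site-1 protease that activates ATF6, had 19.3 ± 0.812 FPKM in KD and 15.1 ± 0.342 FPKM in NC (log2 difference 0.33, limma adjusted p = 0.00749, or 0.0558 with chromosome medians removed). Eif2ak3, which encodes PERK, rose by a log2 difference of 0.27 (adjusted p = 0.0304), and Rtcb, the ligase that joins the exons of Xbp1 RNA cut by IRE1, fell to 41.9, 51.7 and 54.3 FPKM in KD, against 65.1, 63.6 and 64.7 FPKM in NC (log2 difference -0.39, limma adjusted p = 0.0308). Atf6b passed in all 21 alternatives. The calls of Eif2ak3 and Rtcb were lost without KD2, NC1, NC2 or NC3, that of Eif2ak3 also without KD3, with adjusted p of up to 0.112 for Eif2ak3 and, with chromosome medians removed, 0.212 for Rtcb. Eif2ak3 passed with chromosome medians removed, at a log2 difference of 0.50 (limma adjusted p = 0.00439).

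Of 16 other disulfide enzymes 1 rose and 1 fell, against 6 higher and 2 lower without KD1. They were Tmx1, a membrane-bound isomerase, with 57.6 ± 9.21 FPKM in KD and 39.4 ± 1.60 FPKM in NC, and the sulfhydryl oxidase gene Qsox2, with 10.3 ± 1.02 FPKM in KD and 13.1 ± 0.581 FPKM in NC (SD, n = 3 each). Their limma adjusted p-values were 0.0162 and 0.0291, and both calls were lost without NC1, NC2 or NC3, with an adjusted p of at most 0.0675 for Tmx1 and 0.111 for Qsox2, whose call was also lost without KD2. Of 11 other chaperones and cofactors 0 passed in limma with all libraries, 1 was higher with voom, 4 had an unadjusted p under 0.05, and 5 were higher without KD1. Their most abundant members were Cnpy3, with 28.9, 37.5 and 44.4 FPKM in KD and 30.2, 30.3 and 31.8 FPKM in NC, and Mesd, with 18.7 to 20.2 FPKM in KD and 18.7 to 20.1 FPKM in NC. Of 27 other degradation genes 4 rose and 4 fell, and without KD1 6 were higher and 7 lower. Those with the largest differences were the lectin Erlec1 (8.89 and 6.98 FPKM in KD and NC) and the J-domain protein Dnajb14 (4.23 and 2.80 FPKM) higher, and Dnajb12 (8.79 and 11.5 FPKM) and Aup1 (17.9 and 22.7 FPKM) lower. The limma adjusted p of these 4 lay between 0.0347 and 0.0444, and each lost its call without KD2, NC1, NC2 or NC3, Erlec1 also without KD3 and Dnajb12 also without KD1 (0.0599). All 4 also lost the call with no filter. With chromosome medians removed it was lost for Erlec1, Dnajb12 and Aup1 (limma adjusted p = 0.0952, 0.31 and 0.452) and kept for Dnajb14 (0.0261). Erlec1 and Aup1 also lost it with the replicate block, and Dnajb12 and Aup1 without the moderation trend. A further 3 were named after their values were seen. Vcp, the ATPase that extracts proteins for the proteasome, had 124.6 ± 2.56 FPKM in KD and 100.7 ± 2.45 FPKM in NC (SD, n = 3 each; limma adjusted p = 0.00677) and passed in all 21 alternatives. Nploc4 and Erlin1 were lower (limma adjusted p = 0.0124 and 0.0182), passing in 17 and 18 of the 21 alternatives.

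Of 21 other translocation genes 1 rose and 2 fell, and without KD1 3 were higher and 6 lower. Spcs3, another signal peptidase subunit, had 100.3, 81.3 and 74.8 FPKM in KD1, KD2 and KD3, against 56.1, 54.8 and 51.2 FPKM in NC1, NC2 and NC3 (log2 difference 0.64, SE 0.11, limma adjusted p = 0.00808). The channel subunit Sec61a1 fell to 39.9 ± 1.23 FPKM in KD, against 47.0 ± 1.53 FPKM in NC, and Sec63, which recruits BiP to the channel, to 11.1 ± 0.323 FPKM in KD, against 14.4 ± 0.0449 FPKM in NC (SD, n = 3 each). Both lost the call with chromosome medians removed (limma adjusted p = 0.935 and 0.102), and Sec61a1 also without KD2, NC1, NC2 or NC3. Of 14 genes for N-glycan transfer and glucose trimming 3 rose and 0 fell, and without KD1 4 were higher and 2 lower. The 3 that rose encode oligosaccharyltransferase subunits, Rpn2 with 177 and 143 FPKM in KD and NC, Ddost with 224 and 185 FPKM, and Ostc with 59.0 and 50.1 FPKM. Other subunits of the same complex were named after their values were seen, and lay on either side. Rpn1 had 74.9 ± 6.56 FPKM in KD and 86.3 ± 1.55 FPKM in NC (SD, n = 3 each, limma adjusted p = 0.0879, or 0.0275 without KD1). Stt3b, Dad1 and Krtcap2 had 95.6%, 92.9% and 96.2% of NC, and Stt3a, Tusc3 and Magt1 had 110.9%, 106% and 107.9%. The higher means of Tusc3 and Magt1 depended on KD1. Tusc3 had 38.7, 31.2 and 32.4 FPKM in KD1, KD2 and KD3, and Magt1 had 51.9, 41.6 and 37.8 FPKM. Without KD1 their log2 differences were -0.016 and -0.031. None of these other subunits passed with all libraries, and in Stt3a every KD library lay above every NC library. Spcs3 and Rpn2 passed in all 21 alternatives, while Ddost and Ostc lost the call without KD2, NC1, NC2 or NC3 and Ostc also without KD3, with an adjusted p of at most 0.0757 and 0.109. Without KD1, 28 of the 97 rose and 19 fell, beside 20.9% and 21.5% of all genes. Without KD2, NC1, NC2 or NC3 between 5 and 6 rose and between 1 and 2 fell. In those fits 590 to 651 of all genes were higher and 923 to 983 lower. Without KD3 11 rose and 9 fell, beside 1006 and 1454 genes.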

How the data were processed

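Paired-end reads of 6 RNA libraries were aligned by HISAT2 2.0.5 (per the labels' protocols) to mm10 (per the submitters' processing notes). Counter, strand setting and annotation: not given in the sources used here. FPKM per library for 54532 genes, with their coordinates and length, were deposited by the authors, per the file headers. Multiplying FPKM by length gave whole reads for 100% of values (tolerance 0.01), and from them the depth. All 36 members have the same coordinates in GENCODE M21.

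The titles set the groups. A linear model of group was fitted with limma 3.58.1 (R 4.3.3) to log2(FPKM + 1) of the 12299 genes averaging 1 FPKM or more, with a mean-dependent prior for the variance; p-values were adjusted after Benjamini and Hochberg and called under 0.05. Differences are KD minus NC on this scale, which understates the change of low genes. The members, lists and tests were chosen with earlier results of these data known. All members, Calu and up to 4 called genes of each further list with the largest difference were named, or the 2 most abundant where none was called. GC content is that of the longest GENCODE M21 transcript. The alternatives were a pseudocount of 0.1 or 5, no filter or one of 5 FPKM, 3 other scalings, moderation without the trend or made robust, the replicate number as a block, weights per library, voom on recovered reads, only protein-coding genes, chromosome medians removed, a GC and length trend removed, and each library left out. The code was tested on simulated data. Motifs were matched exactly in RefSeq windows. Python 3.11.15, pandas 2.3.3 and matplotlib 3.10.9 made tables and plots.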

Additional observations from a re-analysis of the deposited data

How the results depend on the processing

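Depth, 3 libraries a group and the offset of KD1 limit these results, and most members' differences are under 1.5-fold. With all libraries kept, counts over all genes, members and other ER genes moved by over 1.5 times in the following settings. Array weights gave 18 members higher and 7 lower, 3443 genes higher and 3483 lower, and 35 other ER genes higher and 30 lower. With the GC and length trend removed 18 members, 2383 genes and 31 other ER genes were higher. Other ER genes lower numbered 4 with no filter, 5 with the replicate block and 4 with chromosome medians removed. Some counts also moved by over 1.5 times without KD1, KD2, NC1, NC2 or NC3, with ranges given below. The cause was not tested. Counts of single roles are small and moved more often. The BiP and GRP94 group had 4 genes higher with the filter of 5 FPKM, equal totals, quantile scaling, voom and protein-coding genes only, 5 with the GC and length trend removed and 6 with array weights, in place of 2. The lectins had 0 higher with no filter or chromosome medians removed and 2 with the GC and length trend removed, in place of 1. Leaving out one library gave 3 to 15 members higher and 2 to 5 lower, 590 to 2572 genes higher and 923 to 2648 lower, and 5 to 28 other ER genes higher and 1 to 19 lower. The filter of 5 FPKM tests fewer genes. With voom on the recovered reads 10 members were higher and 3 lower. The median difference of the members was between 0.11 and 0.15 in every setting.

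The replicate block gave 8 members higher and 2 lower, and ended the calls of Dnajc3 (limma adjusted p = 0.0651) and Ern1 (0.0895) while Dnajb11 passed (0.0498). Same-numbered libraries had correlations of 0.08, -0.04 and 0.15 between their deviations, so the numbers were not taken as pairs. Not every library correlated best with its own number.

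Of members and named genes called with all libraries, none changed sign. Of the genes named after their values were seen, Tusc3 and Magt1, which did not pass, changed sign without KD1 (log2 differences of -0.016 and -0.031). Among the members and the genes named by the stated rule, differences that did change sign, all of genes that did not pass, were as follows. Quantile scaling gave Hsp90b1 -0.013, Creld2 0.054, Edem3 0.0013, Os9 0.012, Mesd 0.033. Array weights gave Hsp90b1 -0.032, Sdf2l1 0.00051, Creld2 0.11, Edem3 0.0012, Os9 0.032. Chromosome medians removed gave Hspa13 0.044, Sdf2l1 0.0044, Creld2 0.081, Atf6 0.074, Edem3 0.16, Os9 0.16. GC and length trend removed gave Hspa13 0.042, Edem3 0.071, Mesd 0.039. Equal totals gave Creld2 0.020, Edem3 0.020, Mesd 0.020. Leaving out one library at a time gave Hsp90b1 -0.075 to 0.073, Hspa13 -0.12 to 0.043, Sdf2l1 -0.23 to 0.11, Creld2 -0.13 to 0.17, Edem3 -0.038 to 0.031, Os9 -0.18 to 0.12, Mesd -0.038 to 0.014.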
